A study of Mus musculus with 24 samples.

Results

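*Gzma*, *Gzmb*, *Gzmk*, and *Prf1* encode the granule proteins that killer lymphocytes release onto target cells. The 4 genes were taken by their symbols from the 32285 genes listed in the deposited count tables (*Gzma*, ENSMUSG00000023132; *Gzmb*, ENSMUSG00000015437; *Gzmk*, ENSMUSG00000042385; *Prf1*, ENSMUSG00000037202). They were followed across CD8 states, CD4 T cells, NK cells, neutrophils, and macrophages of Panc02 tumors, a murine pancreatic cancer line grown s.c. in male WT C57BL/6 mice aged 6–7 weeks. The mice received 1 of 8 treatments, covering all combinations of the vaccine PancVAX with the antibodies anti-PD-1 and anti-CTLA-4. They were isotype control, anti-CTLA-4, anti-PD-1, anti-PD-1 with anti-CTLA-4, PancVAX, and PancVAX with either antibody or with both. PancVAX is a neoantigen peptide vaccine (50 µg of peptides in the labels, 50 µg of each peptide in the methods) given on days 12 and 19 in AddaVax with a STING agonist, and the other groups received PBS in its place, so that a PancVAX effect joins peptides and adjuvants. Anti-PD-1 (100 µg) was started on day 12, and anti-CTLA-4 (100 µg) was given on days 15 and 22. Isotype antibodies stood in for each antibody left out. Tumors were harvested on day 38 per the labels. A legend of the study names another day for Panc02 tumors.

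Tumors were pooled by treatment, and for each treatment 1 library came from the unfractionated cell suspension (whole tumor) and 1 from cells enriched on a Percoll gradient. Both libraries of a treatment are called its pool here, and the comparison of 4 pools with PancVAX against 4 pools without it uses pools, not mice, as replicates. *P* values therefore measure the spread between pools. Preparation coincides with sequencing batch. The 16 libraries held 77132398–176233225 unique molecular identifiers (UMIs), and 57355 of 144994 barcodes passed the limits on genes, UMIs, mitochondrial UMIs, and hemoglobin. Of the barcodes kept, 9830 (17.1%) had a barcode sequence that also occurs in another library. Cells were gated by the presence of marker UMIs, and none of the 4 genes served as a marker.

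Granzymes are serine proteases that perforin, the product of *Prf1*, helps to deliver from the lytic granule into the target cell. Granzyme B cleaves after aspartate and activates caspases and Bid, whereas granzymes A and K are tryptases that cleave after basic residues. Activated CD8+ T cells make these proteins after antigen stimulation, and NK cells carry *Gzma*, *Gzmb*, and *Prf1* messages before they meet a target. *Gzmk* is known from memory and early effector CD8+ T cells rather than from mature NK cells.

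In GRCm38.p6 *Gzma* lies at chr13:113093824-113100981 and *Gzmk* at chr13:113171630-113180965, both on the minus strand, with 70648 bases and 1 listed noncoding gene between them. *Gzmb* lies at chr14:56258836-56262334 on the minus strand and *Prf1* at chr10:61297751-61304684 on the plus strand. All 4 matched the RefSeq promoter table of that build. The bases before each annotated start are shown as a description, and their relation to the levels below was not tested. They were searched on both strands for the Runx core TGTGGT, the AP-1 site TGANTCA, and the T-box letters GGTGTGA, and matches are in capitals. For *Prf1* the 85 bases that lie inside the annotated gene were left out.
Gzma, chr13:113100982-113101231, minus strand: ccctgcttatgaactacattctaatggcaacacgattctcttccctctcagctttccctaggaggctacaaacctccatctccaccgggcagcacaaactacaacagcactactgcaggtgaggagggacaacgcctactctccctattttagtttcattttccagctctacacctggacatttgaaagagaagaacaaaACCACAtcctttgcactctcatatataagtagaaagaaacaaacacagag
Gzmk, chr13:113180966-113181215, minus strand: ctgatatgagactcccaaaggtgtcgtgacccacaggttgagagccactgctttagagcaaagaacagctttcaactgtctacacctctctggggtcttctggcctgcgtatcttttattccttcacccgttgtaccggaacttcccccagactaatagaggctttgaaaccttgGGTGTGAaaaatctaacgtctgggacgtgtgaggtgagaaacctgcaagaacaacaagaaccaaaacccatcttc
Gzmb, chr14:56262335-56262584, minus strand: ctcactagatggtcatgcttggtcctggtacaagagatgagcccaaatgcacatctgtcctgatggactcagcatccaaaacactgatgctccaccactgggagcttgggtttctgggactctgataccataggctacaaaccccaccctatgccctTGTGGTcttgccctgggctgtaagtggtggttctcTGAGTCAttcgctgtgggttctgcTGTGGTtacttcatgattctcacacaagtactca
Prf1, chr10:61297586-61297750, plus strand: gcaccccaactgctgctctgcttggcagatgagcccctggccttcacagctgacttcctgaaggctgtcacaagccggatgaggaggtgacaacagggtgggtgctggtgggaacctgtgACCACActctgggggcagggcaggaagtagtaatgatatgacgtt

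The promoter of *Gzmb* held the Runx letters 2 times, 93–88 and 34–29 bases before the start, and an AP-1 match between them at 58–52 bases. *Gzma* held 1 Runx match on the opposite strand at 50–45 bases, and *Prf1* 1 such match at 45–40 bases. *Gzmk* had no Runx match in these letters and 1 T-box match at 75–69 bases. Positions are counted from the annotated gene starts given above. Among 32851 RefSeq promoters, the table's 250 bases before a start held the Runx letters in 14.0%, the AP-1 letters in 6.75%, and the T-box letters in 3.33%, against 165 of those bases shown for *Prf1*. A match is a description of the letters and not of binding.

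The first question was which cells carried each message. Levels are UMIs of the gene per 1e+06 UMIs of the gate (CPM, counts per 1e+06), given per pool and compared only within a gene. Neutrophils (4226 cells) carried 2.50–16.5 CPM of *Gzma*, 2.08–9.67 of *Gzmb*, 0–1.76 of *Gzmk*, and 0–1.35 of *Prf1*, and macrophages (8088 cells) at most 5.44 CPM of any of the 4 in any pool. These cells serve as a low level for comparison. Their gates exclude barcodes with UMIs of *Cd3* genes, *Cd8* genes, or *Ncr1*, which can lower these values, and free RNA itself was not measured. After thinning each cell to 1000 UMIs, 0.994% of neutrophils and 20.9% of CD8-gated cells had a UMI of *Gzma* (median depth before thinning, 1479.5 and 3867 UMIs). The same shares were 0.663% and 42.5% for *Gzmb*, 0.071% and 13.6% for *Gzmk*, and 0.0237% and 10.7% for *Prf1*.

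**Figure D1:**
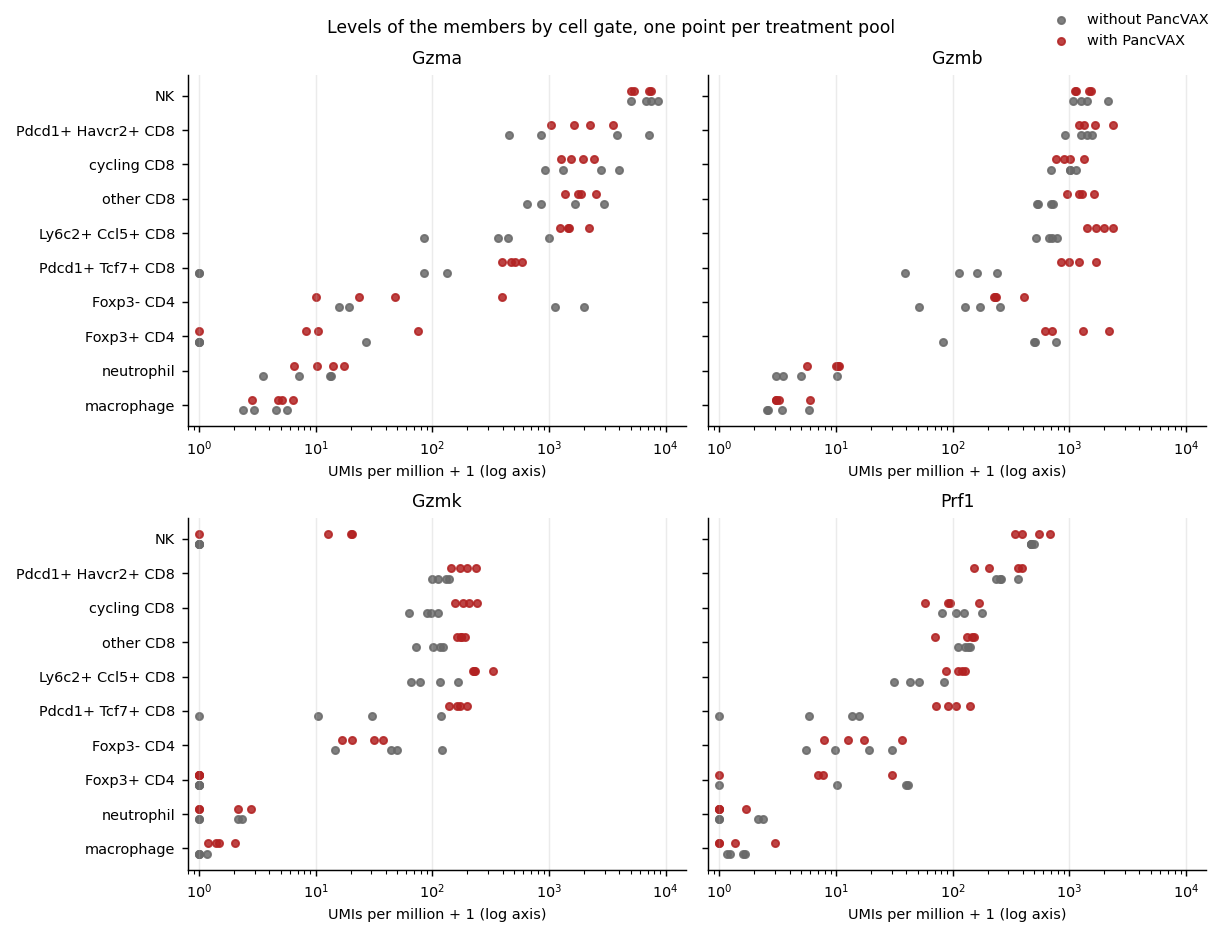
Levels of *Gzma*, *Gzmb*, *Gzmk*, and *Prf1* (CPM plus 1, log axis) in 10 cell gates, with 1 point per treatment pool, red with PancVAX and gray without. With the upper limits on genes and UMIs shown here, *Gzma* and *Prf1* stood highest in NK cells, whereas without those limits *Prf1* was lower in NK than in Pdcd1+ Havcr2+ CD8 cells in 8 of 8 pools and *Gzma* in 5 of 8. *Gzmk* was at or near 0 in NK and Foxp3+ CD4 cells, and the points of Pdcd1+ Tcf7+ CD8 cells with and without PancVAX lie apart.

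NK cells (414 cells, with 2 or more NK receptor genes and no T cell marker) held *Gzma* at 5032–8567 CPM (median 7021), above Pdcd1+ Havcr2+ CD8 cells, the next in order, in 7 of 8 pools. *Prf1* was 340–684 CPM in NK cells and exceeded the next gate, again Pdcd1+ Havcr2+ CD8 cells, in 8 of 8 pools. *Gzmb* reached 1079–2152 CPM in NK cells and did not stand apart from Pdcd1+ Havcr2+ CD8 cells (912–2382), with NK cells lower in 5 of 8 pools. *Gzmk* gave 8 UMIs in NK cells over all pools, 0 in 5 pools and 11.8–19.4 CPM in the others. *Cd3e*, *Cd3d*, and *Cd3g* were at 0 in this gate by its definition.

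This order rested on the upper limits of 3000 genes and 10000 UMIs per cell. Without them the NK gate held 691 cells, 277 more, and its levels fell to 543–1510 CPM for *Gzma*, 119–386 for *Gzmb*, and 45.0–151 for *Prf1*. Pdcd1+ Havcr2+ CD8 cells then held 580–6244, 1028–1894, and 207–410 CPM. NK cells were lower in 5 of 8 pools for *Gzma* and in 8 of 8 for *Gzmb* and *Prf1*, so that the order of *Prf1* turned. *Gzmk* remained at 0–4.91 CPM in NK cells. Which cells the limits take out of this gate was not tested.

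Among CD8-gated cells (10541 cells with a *Cd3* gene and *Cd8a* or *Cd8b1*) the states were separated by *Pdcd1*, *Havcr2*, *Tcf7*, *Ly6c2*, *Ccl5*, and cell cycle genes, among others. *Prf1* was highest on average among them in Pdcd1+ Havcr2+ cells (153–395 CPM, 634 cells), which carry the checkpoint receptors PD-1 and TIM-3. These cells exceeded the CD8 cells of no named state in 8 of 8 pools. Cycling CD8 cells held 57.3–177 CPM of *Prf1*, with overlap. *Gzmk* in Ly6c2+ Ccl5+ cells (64.0–331 CPM) did not stand apart from that in Pdcd1+ Havcr2+ cells (98.6–237 CPM), being higher in 4 of 8 pools. By mean log2 level these gates ranked 1 and 3 of all gates with PancVAX, and 3 and 1 without it. In Foxp3- CD4 cells *Gzmb* (50.3–412 CPM) was higher than in neutrophils in 8 of 8 pools, by 4.83 on the log2 scale.

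Foxp3+ CD4 cells (236 cells), the regulatory T cell gate, had *Gzmb* at 82.1–2191 CPM, no UMI of *Gzmk* in any pool, and 16 UMIs of *Prf1* in all. The *Gzmk* count was 0 of 236 cells, which allows up to 1.27% of cells with a UMI at this depth and does not limit the share of cells that express the gene. NK markers were also at 0 in this gate. Each gene was compared between gates that neighbor in the order of mean log2(CPM + 1), paired within pools, by an exact two-sided sign-flip permutation test whose smallest *P* is 0.00781. None of the 40 neighboring pairs passed an adjusted *P* below 0.05 (Benjamini-Hochberg). The pairs with differences in 8 of 8 pools reached an adjusted *P* of 0.0781 in that exact test. Among them was *Prf1* in NK against Pdcd1+ Havcr2+ CD8 cells, with the upper limits on genes and UMIs. Also among them were *Prf1* in Pdcd1+ Havcr2+ cells against CD8 cells of no named state, and *Gzmb* in Foxp3- CD4 cells against neutrophils.

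The second question was what PancVAX changed in CD8-gated cells as a whole. In the order isotype control, anti-CTLA-4, anti-PD-1, and both antibodies, *Gzmb* was 709, 756, 558, and 809 CPM. With PancVAX alone, with anti-CTLA-4, with anti-PD-1, and with both, it was 1775, 1242, 1052, and 1400 CPM. All 4 pools with PancVAX were above all 4 without, with the upper limits on genes and UMIs. *Gzmb* rose by 0.85 ± 0.15 on the log2 scale (SE, 1.81-fold, adjusted *P* = 0.00631 by edgeR's quasi-likelihood test with Benjamini-Hochberg adjustment over all genes).

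*Gzmk* was 105, 65.7, 100.1, and 90.8 CPM without PancVAX in the same order of antibodies. It was 229, 177, 183, and 183 CPM with it, again with no overlap between the groups. The rise was 1.00 ± 0.12 on the log2 scale (2.00-fold, adjusted *P* = 0.00105, edgeR). These were 2 of the 4 genes, where 10.1% of 11139 genes tested were called (adjusted *P* below 0.05 and an absolute log2 fold change above 0.5). Of all genes, 3707 had an unadjusted *P* below 0.05 (edgeR), and the share without overlap between the groups is not given here.

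*Gzma* spread widely among the pools without PancVAX, at 3210, 647, 689, and 1810 CPM, against 2081, 1367, 1609, and 1488 CPM with it. The isotype control pool was the highest of all 8 and the groups overlapped (log2 fold change −0.02 ± 0.43, adjusted *P* = 0.984, edgeR), with 0.65 when the isotype control pool was left out (adjusted *P* = 0.331). *Prf1* was 152, 112, 128, and 119 CPM without PancVAX and 149, 133, 78.0, and 116 CPM with it. It was lowest with PancVAX plus anti-PD-1, and the groups overlapped (−0.23 ± 0.16, adjusted *P* = 0.366, edgeR). The median CD8-gated cell held 3344–3577 UMIs in pools with PancVAX and 4242–5035 in the others. NK markers (*Ncr1*, *Klrb1c*, *Klre1*, all 3 detected) summed to 62.3–106 CPM in this gate with PancVAX and 142–208 CPM without. The *Cd3* genes (*Cd3e*, *Cd3d*, *Cd3g*) were also lower with PancVAX, at 2768–3516 against 4070–4376 CPM. Macrophage markers (*C1qa*, *C1qb*, *Apoe*, *Lyz2*) were higher with it, at 215–321 against 164–204 CPM, with no overlap in any of these 3 sums. Neutrophil markers (*S100a8*, *S100a9*, *Retnlg*; 33.6–179 against 21.5–91.3 CPM) and the epithelial genes *Krt8* and *Krt18* (65.4–325 CPM against at most 72.2) overlapped. Their part in these results was not tested.

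**Figure D2:**
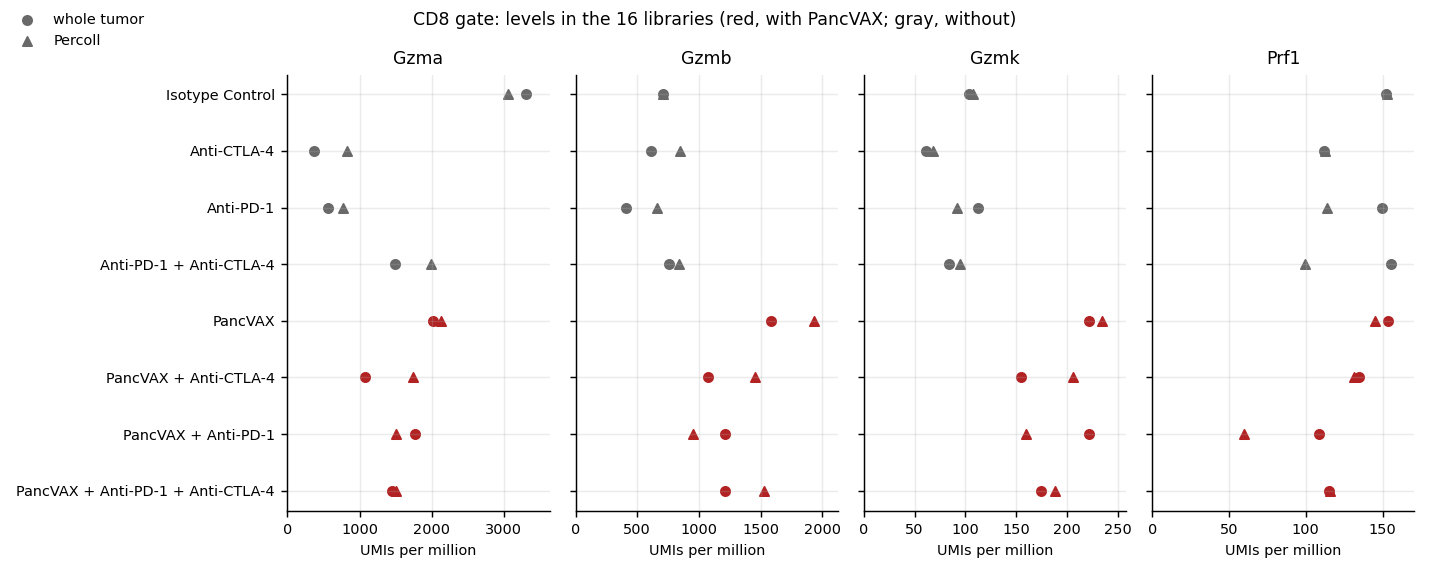
Levels (CPM) of the 4 genes in CD8-gated cells of the 16 libraries, by treatment, with circles for whole tumor and triangles for Percoll, red with PancVAX and gray without. For *Gzmb* and *Gzmk* every red point lies to the right of every gray point, whereas *Gzma* of the isotype control libraries is the highest in its panel.

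The separation held in each preparation. *Gzmb* was 409–756 CPM without PancVAX and 1076–1587 with it in whole-tumor libraries, and 661–850 and 953–1934 CPM in Percoll libraries. *Gzmk* was 61.6–112 and 155–222 CPM in whole-tumor libraries and 68.4–108 and 160–235 CPM in Percoll libraries. The PancVAX effect differed between Percoll and whole-tumor libraries by −0.15 for *Gzmb* and 0.01 for *Gzmk* on the log2(CPM + 1) scale (exact permutation test over pools, *P* = 0.543 and *P* = 0.971, both adjusted *P* = 1). When cells above the upper limits of 3000 genes and 10000 UMIs were kept, *Gzmb* lost its call (log2 fold change 0.39, adjusted *P* = 0.280, edgeR) and *Gzmk* kept it.

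The share of CD8-gated cells with a UMI, each cell thinned to 1000 UMIs, moved apart for 3 of the 4 genes. For *Gzmb* it was 50.9% ± 5.11% (SD, n = 4) with PancVAX and 28.7% ± 2.96% without. For *Gzmk* it was 17.3% ± 1.70% and 7.35% ± 1.11%, and for *Gzma* 26.3% ± 3.18% and 12.6% ± 7.88%. In each of the 3 the lowest pool with PancVAX lay above the highest without, at 23.6% and 23.0% for *Gzma*. The part of all genes whose shares of cells separate in this way is not given here. The exact two-sided permutation test gave *P* = 0.0286 in each, the smallest that 4 against 4 pools allow, and adjusted *P* = 0.114 over 16 comparisons. The same *P* and adjusted *P* were found for *Gzmb* in Foxp3- CD4 cells, at 12.8%–19.2% with PancVAX and 3.39%–11.6% without. The separation in share was thus not limited to CD8-gated cells. For *Prf1* in CD8-gated cells the shares were 11.8% ± 2.89% and 9.84% ± 0.508% (exact permutation *P* = 0.286). Without thinning the *Prf1* difference turned from 1.93 to −1.03 points.

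The summed level of *Gzma* overlapped between the groups while its share of cells did not, and the spread over cells was described next. *Gzma* was carried by few cells: 1341 of 10541 CD8-gated cells (12.7%) with 10 or more UMIs held 92.9% of its UMIs, up to 520 in 1 cell, and 72.6% of cells had none. The same number of UMIs was reached for *Gzmb* by 1543 cells (14.6%) with 62.8% of its UMIs, and for *Gzmk* and *Prf1* by 22 and 30 cells. The highest 5% of cells in a pool held 64.7%–96.7% of *Gzma* UMIs without PancVAX and 56.8%–64.1% with it. For *Gzmb* the top 5% held 40.8%–48.1% and 28.9%–34.2%, and for *Gzmk* 44.7%–51.4% and 32.7%–35.1%. Outside the cells with 10 or more UMIs, *Gzma* was 20.7–53.6 CPM in pools without PancVAX and 139–178 CPM in pools with it. These groups did not overlap, and no test was made, since the cells were divided by the measured value.

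**Figure D3:**
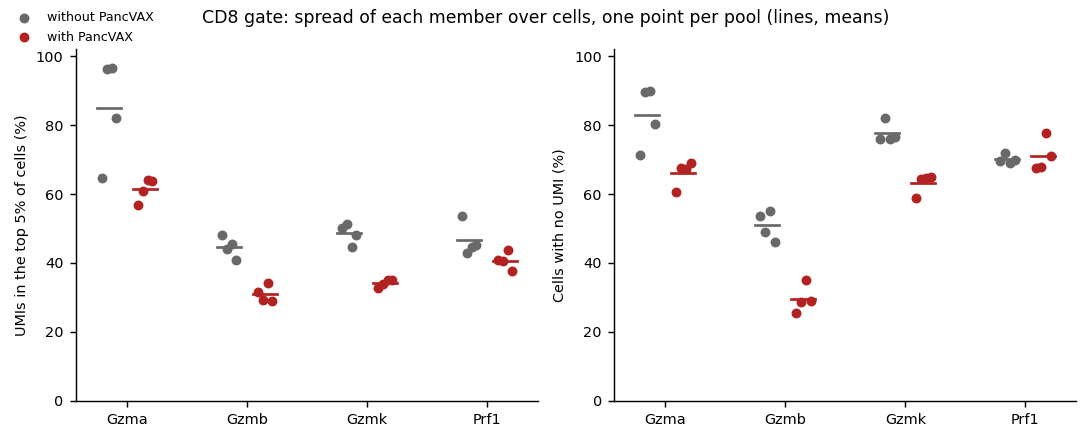
Left, percent of each gene's UMIs held by the highest 5% of CD8-gated cells; right, percent of cells with no UMI, with 1 point per pool, red with PancVAX and gray without, and lines at group means. *Gzma* was the most concentrated of the 4, at 64.7%–96.7% without PancVAX, and the share of cells at 0 for *Gzmb* was 25.5%–35.1% with PancVAX and 46.0%–55.2% without.

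The genes were detected in overlapping sets of CD8-gated cells. Of 9252 cells with 2000 or more UMIs, thinned to that depth, 33.0% had none of the 4, 33.1% had 1, 21.8% had 2, 10.1% had 3, and 2.08% had all 4. Of the cells with *Gzma*, 79.1% also had *Gzmb*, against 53.4% of all cells. Of the cells with *Gzmb*, 34.4% had *Gzma*, against 23.2% of all cells. Of the cells with *Gzmk*, 71.6% had *Gzmb* and 43.6% had *Gzma*. *Prf1* was found in 21.7% of cells with *Gzmb* and in 17.5% of all cells. All of these values join pools with and without PancVAX. The share of *Gzmk* cells that also had *Gzmb* was 78.4% with PancVAX and 48.9% without, in a background of 62.1% and 38.9% of all cells with *Gzmb*.

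The mixture of CD8 states also moved with PancVAX, and the difference was not tested. Ly6c2+ Ccl5+ cells, which lack *Pdcd1* and *Havcr2*, made up 35.9% ± 3.70% (SD, n = 4) of CD8-gated cells with PancVAX and 6.47% ± 1.22% without. Pdcd1+ Havcr2+ cells made up 4.16% ± 0.493% and 9.57% ± 1.64%. In a comparison added after the data were seen, each of the 6 states was given a fixed weight that was the same in every pool. That weight was the state's share of CD8 UMIs averaged over pools, so that the states weighed unequally. The ratio with over without PancVAX was then 1.83 for *Gzmb*, 1.99 for *Gzmk*, 1.39 for *Gzma*, and 1.05 for *Prf1* (mean log2 difference over pools). As measured it was 1.91, 2.14, 1.27, and 0.91, so that *Prf1* changed direction. The exact permutation test over pools gave *P* = 0.0286 for *Gzmb* and *Gzmk* with either weighting (adjusted *P* = 0.0571 over the 4 genes). For *Gzma* and *Prf1* the exact test gave *P* = 0.371 and *P* = 0.8 with the fixed weights and *P* = 0.543 and *P* = 0.686 as measured.

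The states were next tested one at a time. In Pdcd1+ Tcf7+ cells, whose *Tcf7* marks stem-like T cells and which were gated without *Havcr2*, all 4 genes rose with PancVAX, where 5.78% of 3132 genes tested were called. In the pools without PancVAX, *Prf1* had 3 UMIs and *Gzmk* 15 in all. *Prf1* and *Gzmk* thus entered the count only through the pools with PancVAX, where they were high. *Gzmb* was 237, 160, 38.0, and 112 CPM without PancVAX (isotype control, anti-CTLA-4, anti-PD-1, both antibodies). It was 1202, 985, 843, and 1680 CPM with it, and the groups lay far apart (log2 fold change 3.19 ± 0.27, adjusted *P* = 1.34e-08, edgeR). *Gzma* was 0, 132, 0, and 83.1 CPM without PancVAX and 397, 473, 515, and 585 CPM with it (2.99 ± 0.34, adjusted *P* = 1.29e-06, edgeR). Its log2 fold change was 4.05 by DESeq2 and 6.27 in Percoll libraries alone. In this gate 2 of the pools without PancVAX held no UMI of it.

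*Gzmk* in Pdcd1+ Tcf7+ cells was 118, 9.44, 0, and 29.3 CPM without PancVAX and 162, 171, 138, and 197 CPM with it (2.30 ± 0.42, adjusted *P* = 6.77e-04, edgeR). By DESeq2 it was not called (adjusted *P* = 0.219). It was 3.30 without the isotype control pool, 3.23 in Percoll libraries alone, and 3.11 with the libraries unsummed. *Prf1* was 14.8, 0, 12.7, and 4.89 CPM without PancVAX and 140, 107, 71.2, and 90.2 CPM with it (3.72 ± 0.54, adjusted *P* = 5.86e-05, edgeR). All 4 genes had no overlap between the groups. Of 3132 genes tested in this gate, 548 had an unadjusted *P* below 0.05 (edgeR), and the share without overlap is not given here. The gate was small, with 88 cells in the 4 pools without PancVAX (13 in isotype control) and 296 in the others. *Prf1* rested on 3 UMIs without PancVAX against 117 with it, a ratio of 14.5 with a counting interval of 4.85–71.4 (exact, 95%, counting error only). It passed the filter on low counts only through the pools with PancVAX, where it was high. Without upper limits on genes and UMIs its log2 fold change was 1.85 (adjusted *P* = 0.00775, edgeR). NK markers were 33.5–54.6 CPM in this gate with PancVAX and 178–235 CPM without, the opposite direction to the 4 genes. The *Cd3* genes were 2542–3042 CPM with PancVAX and 3376–3928 CPM without, and the part of either list was not tested.

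In Ly6c2+ Ccl5+ cells (2645 cells, 247 without PancVAX) all 4 genes were also called, where 3.71% of 7756 genes were. *Gzma* was 1005, 448, 367, and 83.8 CPM without PancVAX and 2193, 1498, 1245, and 1445 CPM with it (1.91 ± 0.23, adjusted *P* = 1.60e-05, edgeR), and the log2 fold change was 2.77 in Percoll libraries alone. *Gzmb* was 668, 515, 781, and 708 CPM without PancVAX and 2371, 1684, 1429, and 1981 CPM with it (1.39 ± 0.14, adjusted *P* = 1.44e-06, edgeR). Neither gene overlapped between the groups. Of all genes tested in this state, 1292 had an unadjusted *P* below 0.05 (edgeR), and the share without overlap is not given here.

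*Gzmk* in this state was 115, 64.0, 165, and 77.1 CPM without PancVAX and 331, 232, 227, and 221 CPM with it (1.20 ± 0.19, adjusted *P* = 2.37e-04, edgeR). *Prf1* was 50.2, 30.5, 42.2, and 83.8 CPM without PancVAX and 119, 127, 87.4, and 111 CPM with it (1.00 ± 0.25, adjusted *P* = 0.0155, edgeR). Its highest pool without PancVAX came close to its lowest with it. The *Prf1* call was lost without the anti-CTLA-4 pool (0.68, adjusted *P* = 0.162), without the PancVAX plus anti-CTLA-4 pool (0.97, adjusted *P* = 0.0711), and without upper limits on genes and UMIs (0.90, adjusted *P* = 0.0593, edgeR). It was also lost in whole-tumor libraries alone (0.76, adjusted *P* = 0.188) and in Percoll libraries alone (1.31, adjusted *P* = 0.112, edgeR). In this state neutrophil markers were 12.2–48.1 CPM with PancVAX and 0–4.22 CPM without, and the *Cd3* genes 2462–2927 and 3086–3381 CPM. NK markers were 30.7–53.5 and 50.3–168 CPM, with overlap, and the part of these lists was not tested.

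In Pdcd1+ Havcr2+ cells none of the 4 genes was called, where 1.72% of 5583 genes were. DESeq2 called 0 of the 4 as well, and 1 had an unadjusted *P* below 0.05. That gene was *Gzmk*, at 138, 98.6, 130, and 111 CPM without PancVAX and 143, 172, 237, and 197 CPM with it (0.55 ± 0.15, adjusted *P* = 0.0611, edgeR). It passed the threshold without the isotype control pool (adjusted *P* = 0.0492) and without the PancVAX pool (adjusted *P* = 0.0210, edgeR). It also passed with the 16 libraries unsummed (0.60, adjusted *P* = 0.0174, edgeR). The unsummed fit took both libraries of a treatment as separate units, although they may hold the same mice. *Gzmb* was 1410, 1261, 912, and 1567 CPM without PancVAX and 2382, 1652, 1343, and 1222 CPM with it, with overlap (0.20 ± 0.16). *Gzma* ranged from 454 to 7141 CPM without PancVAX, highest in isotype control, and from 1033 to 3509 with it (−0.75 ± 0.49, adjusted *P* = 0.513, edgeR). The sign turned without the isotype control pool (0.44, adjusted *P* = 0.784) and without the pool of both antibodies (0.26, adjusted *P* = 0.902, edgeR). Leaving out the anti-PD-1 pool, which held the lowest value, brought *Gzma* past the threshold as a fall (−1.25, adjusted *P* = 0.00759, edgeR), and so did testing without the filter on low counts (−0.79, adjusted *P* = 3.32e-12). The fit without the filter used the same pools as the main one, at nearly the same log2 fold change. *Prf1* was 234–366 CPM without PancVAX and 153–395 CPM with it (−0.19 ± 0.16). The *Cd3* genes were 4471–4836 CPM in this state with PancVAX and 4839–5056 CPM without, and their part was not tested.

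The PancVAX effect was smaller in Pdcd1+ Havcr2+ than in Ly6c2+ Ccl5+ cells for all 4 genes, by 2.09 (*Gzma*), 1.14 (*Gzmb*), 0.70 (*Gzmk*), and 1.25 (*Prf1*) on the log2(CPM + 1) scale. None of these differences passed the adjusted threshold. *Gzmb* reached the smallest *P* of the exact permutation test, *P* = 0.0286 (adjusted *P* = 0.114 over 8 comparisons), and the adjusted *P* of the others was 0.152–0.190.

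**Figure D4:**
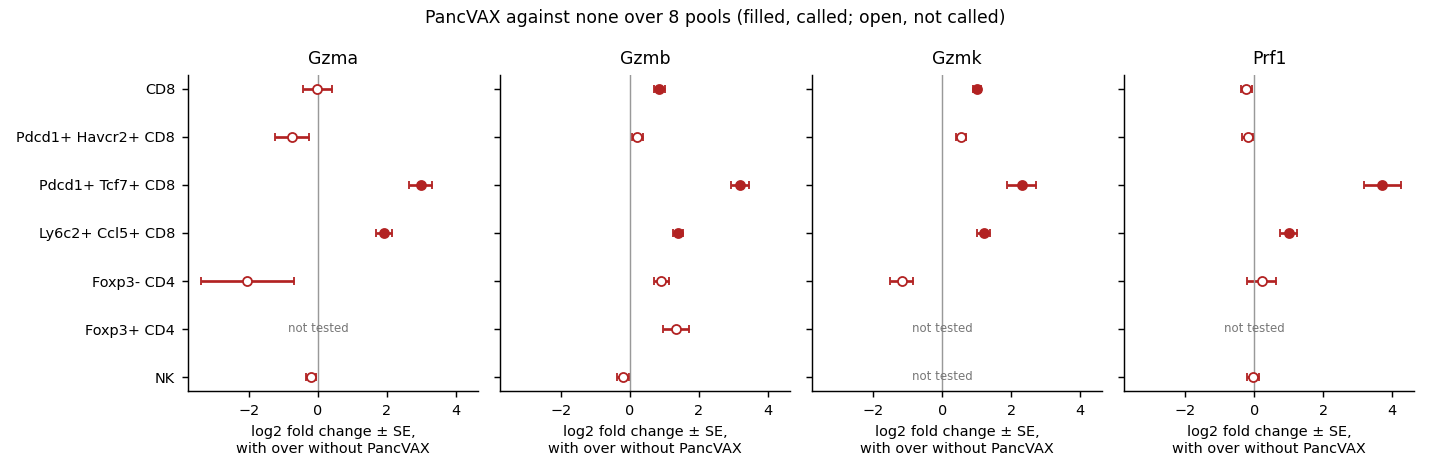
Log2 fold change (± SE, edgeR over 8 pools) with over without PancVAX for the 4 genes in 7 gates, filled where called and open where not. All 4 genes are filled at 1.00–3.72 in the Pdcd1+ Tcf7+ and Ly6c2+ Ccl5+ CD8 gates, and none is filled in Pdcd1+ Havcr2+ CD8, CD4, or NK cells. The 3.72 is *Prf1* in Pdcd1+ Tcf7+ cells, which had 3 UMIs without PancVAX and passed the filter on low counts only through the pools with it. *Gzmk* in that gate, with 15 UMIs without PancVAX, also passed only through those pools.

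In NK cells none of 3 genes tested was called with PancVAX, where 0.0896% of 3347 genes were, and *Gzmk* did not pass the filter on low counts. DESeq2 called 0 of them and none had an unadjusted *P* below 0.05. *Gzma* was 5032–8567 CPM without PancVAX and 5078–7425 CPM with it (−0.20 ± 0.15). *Gzmb* was 1079–2152 and 1121–1550 CPM (−0.21 ± 0.17), and *Prf1* 465–497 and 340–684 CPM (−0.04 ± 0.18). The *Gzmb* effect was 1.07 larger in CD8-gated than in NK cells on the log2(CPM + 1) scale (exact permutation *P* = 0.0286, the smallest possible, adjusted *P* = 0.114 over 8). The same difference was 0.50 for *Gzma*, −0.13 for *Prf1*, and −1.99 for *Gzmk*, which had 8 UMIs in NK cells (exact permutation *P* = 0.429, 0.6, and 0.143). The gate held 29–69 cells per pool.

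In Foxp3- CD4 cells (1119 cells) none of the 4 was called, where 0.992% of 5446 genes were. DESeq2 called 1, *Gzmb* (0.93, adjusted *P* = 0.0122), and 2 had an unadjusted *P* below 0.05 in edgeR. *Gzmb* was 50.3, 171, 127, and 255 CPM without PancVAX and 233, 227, 229, and 412 CPM with it (0.90 ± 0.21, adjusted *P* = 0.0634, edgeR). It was called without the PancVAX plus anti-CTLA-4 pool (1.07, adjusted *P* = 0.0322) and in Percoll libraries alone (1.20, adjusted *P* = 0.0247, edgeR). *Gzmk* was 13.7–121 CPM without PancVAX and 16.0–36.5 CPM with it, with overlap (−1.17 ± 0.34, adjusted *P* = 0.146, edgeR). It was −0.56 without the anti-PD-1 pool and −0.51 without upper limits on genes and UMIs (adjusted *P* = 0.657 and 0.692), and it was called without the filter on low counts (−1.12, adjusted *P* = 0.00819, edgeR). *Gzma* reached 1129 and 1978 CPM with anti-CTLA-4 and with both antibodies and 392 CPM with PancVAX plus anti-PD-1, against 9.12–46.6 CPM in the other 5 pools. Of its 1418 UMIs in this gate, 94.9% came from 14 cells with 10 or more UMIs, and 1 cell held 383. With all pools *Gzma* was not called (−2.05 ± 1.34, adjusted *P* = 0.572, edgeR). With 1 pool left out its log2 fold change ran from −5.22 (without PancVAX plus anti-PD-1, adjusted *P* = 6.63e-05) to −0.41 (without all 3 agents, adjusted *P* = 0.964). It was past the threshold in the first of these, in Percoll libraries alone (−3.67, adjusted *P* = 0.0315), and without the filter on low counts (adjusted *P* = 8.29e-18, edgeR). The last of these used the same pools as the main fit. The *Cd3* genes were 2631–3179 CPM in this gate with PancVAX and 3201–3976 CPM without, and their part was not tested.

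In Foxp3+ CD4 cells only *Gzmb* passed the filter on low counts, and 0.041% of 2439 genes were called. It was 774, 82.1, 506, and 496 CPM without PancVAX and 1315, 618, 714, and 2191 CPM with it, with overlap (1.34 ± 0.38, adjusted *P* = 0.201, edgeR). DESeq2 did not call it, and its unadjusted *P* was 0.00182. It was called without the PancVAX plus anti-PD-1 pool (1.86, adjusted *P* = 0.00181), in Percoll libraries alone (2.30, adjusted *P* = 0.00213), and without the filter on low counts (1.38, adjusted *P* = 2.70e-08, edgeR). The last fit used the same pools as the main one, at nearly the same log2 fold change. Without the pool of all 3 agents, which held the highest level, *Gzmb* was at 0.69 (adjusted *P* = 0.718, edgeR). The gate held 17–42 cells per pool.

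The antibodies were tested in the same fits. Anti-PD-1 and anti-CTLA-4 each called 0% of 11139 genes in CD8-gated cells, with 411 and 461 genes at an unadjusted *P* below 0.05 and 6 and 0 genes called by DESeq2, and no member of the 4 in either. Log2 fold changes there were −0.33 to 0.01 for anti-PD-1 and −0.40 to 0.15 for anti-CTLA-4. In Pdcd1+ Havcr2+ cells anti-PD-1 called 0.125% of 5583 genes and none of the 4, with 2 at an unadjusted *P* below 0.05 and 0 by DESeq2. *Prf1* was 0.61 ± 0.16 lower on the log2 scale with anti-PD-1 (adjusted *P* = 0.576, edgeR) and *Gzmb* 0.38 ± 0.16 lower (adjusted *P* = 0.978).

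Both passed the threshold without the pool given both antibodies alone (*Prf1*, adjusted *P* = 0.0137; *Gzmb*, adjusted *P* = 0.00529), and *Prf1* also without the anti-CTLA-4 pool (adjusted *P* = 0.0305, edgeR) and without the filter on low counts (−0.60, adjusted *P* = 0.0166). Anti-CTLA-4 called 0.0537% of genes in that state and 0 of the 4 (0 unadjusted, 0 by DESeq2). *Gzma* there, at −0.98 ± 0.52 (adjusted *P* = 0.984, edgeR), turned to 0.07 without the isotype control pool (adjusted *P* = 1.000), which held the highest level. It passed without the anti-PD-1 pool (−1.64, adjusted *P* = 0.00373, edgeR) and without the filter on low counts (−0.997, adjusted *P* = 5.89e-17). The last fit used the same pools at nearly the same log2 fold change. Its smaller *P* reflects the setting and not a larger difference between pools. In NK cells anti-PD-1 called 0.0896% and anti-CTLA-4 0% of 3347 genes (184 and 139 unadjusted, 1 and 0 by DESeq2). None of the 3 tested members was called. Only *Gzmb* with anti-CTLA-4 had an unadjusted *P* below 0.05 (0.35 ± 0.17, adjusted *P* = 0.999, edgeR).

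Percoll enrichment was compared with whole tumor within treatments. In CD8-gated cells 4.03% of 10446 genes were called and none of the 4 (0 by DESeq2, 3 unadjusted). *Gzma* and *Gzmb* were 0.29 ± 0.12 and 0.24 ± 0.09 higher in Percoll libraries on the log2 scale, and *Prf1* was 0.27 ± 0.10 lower (adjusted *P* = 0.140, 0.0975, and 0.110, edgeR). *Gzmk* was at 0.01 ± 0.09. In NK cells 3.07% of 1957 genes were called and 0 of the 3 members tested (0 unadjusted, 0 by DESeq2), with log2 fold changes of −0.22 to 0.17.

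The other genes of the granule pathway came from 5 lists of 28 genes. In CD8-gated cells 27 were tested, of which 1 rose and 7 fell with PancVAX, with a median log2 fold change of −0.29 against 0.01 over all genes. Of all genes tested in this gate 10.1% were called. Of the other granzymes, 4 fell and 1 rose of 6 tested. Among those that fell, log2 fold changes were −2.54 ± 0.36 for *Gzmf* (adjusted *P* = 0.00232), −2.34 ± 0.57 for *Gzmd* (adjusted *P* = 0.0231), −1.96 ± 0.29 for *Gzmc* (adjusted *P* = 0.00290), and −1.35 ± 0.36 for *Gzme* (adjusted *P* = 0.0338, edgeR). By DESeq2 *Gzme* was not called (adjusted *P* = 0.0619). *Gzmg* had the lowest value, −2.82 ± 1.40, and was not called (adjusted *P* = 0.199). *Gzmm*, the granzyme known from NK cells and named here as the 1 that went up, rose by 1.21 ± 0.28 (adjusted *P* = 0.0180, edgeR). *Gzmb* and *Gzmk* went the opposite way to *Gzmc*, *Gzmd*, *Gzme*, and *Gzmf* in the same cells.

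Of 6 genes of the granule matrix and maturation, 1 fell, *Cst7* (−0.90 ± 0.12, adjusted *P* = 0.00160), which encodes cystatin F, an inhibitor of the cathepsins that activate granzymes. Of 5 exocytosis genes 1 fell, *Rab27a* (−0.55 ± 0.14, adjusted *P* = 0.0301), whose product docks granules at the membrane. Of 4 inhibitors 1 was called, and *Serpinb9b* fell by 1.00 ± 0.27 on the log2 scale (adjusted *P* = 0.0353), and of 6 transcription factors 0 were called in this gate by edgeR (3 at an unadjusted *P* below 0.05, 0 by DESeq2).

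Within states, 23 listed genes were tested in Ly6c2+ Ccl5+ cells, of which 2 rose and 3 fell (median 0.05, against 0.02 over all genes, of which 3.71% were called). *Serpinb9*, the inhibitor of granzyme B, rose by 0.73 ± 0.19 (adjusted *P* = 0.0228) and *Id2* by 0.67 ± 0.12 (adjusted *P* = 8.20e-04). *Gzmf* fell by 4.00 ± 0.74 (adjusted *P* = 0.00137), *Eomes* by 1.75 ± 0.39 (adjusted *P* = 0.00735), and *Cst7* by 0.69 ± 0.15 (adjusted *P* = 0.00594, edgeR). DESeq2 called 4 of these 5 and gave no adjusted *P* for *Eomes*. In Pdcd1+ Tcf7+ cells *Serpinb9* rose by 1.66 ± 0.30 (adjusted *P* = 7.25e-04) and *Cst7* fell by 1.00 ± 0.19 (adjusted *P* = 0.00113, edgeR), of 14 tested, where 5.78% of all genes were called. *Serpinb9* also rose in Foxp3- CD4 cells (1.20 ± 0.22, adjusted *P* = 0.0210, edgeR), as the 1 call of 24 tested, against 0.992% of all genes. In Pdcd1+ Havcr2+ cells *Gzmc* was the 1 call of 25 (−1.68 ± 0.44, adjusted *P* = 0.0428, edgeR), against 1.72% of all genes, and DESeq2 did not call it (adjusted *P* = 0.116). In Foxp3+ CD4 and NK cells 0 of 12 and 0 of 19 listed genes were called by edgeR (1 and 2 at an unadjusted *P* below 0.05, 0 and 0 by DESeq2).

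The Percoll libraries carry T cell receptor contigs, so that clone size could be set beside the 4 genes. Of 5703 CD8-gated cells in those libraries, 4421 had 1 TRB chain, and a clone was all such cells of a library that shared TRB CDR3 and V gene. Clones of 5 or more cells (1812 cells) were compared with singletons (1425 cells) within each of the 8 libraries. *Gzma* was 2491 ± 1284 CPM (SD) in expanded clones and 1213 ± 823 CPM in singletons, higher in 7 of 8 libraries, with a mean difference of 1.15 on the log2(CPM + 1) scale. *Prf1* was 156 ± 58.6 and 75.3 ± 31.9 CPM, higher in 8 of 8 libraries, with a difference of 1.06. Both had an adjusted *P* of 0.0312 (exact two-sided sign-flip permutation, *P* = 0.0156 and *P* = 0.00781).

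*Gzmb* (1149 ± 526 and 1056 ± 416 CPM) and *Gzmk* (147 ± 52.9 and 136 ± 70.2 CPM) were higher in expanded clones in 6 of 8 libraries each (exact permutation, adjusted *P* = 0.383 and 0.219). *Gzma* stood at 664 CPM in singletons and 3782 CPM in expanded clones with PancVAX plus anti-CTLA-4, and at 1443 and 1410 CPM with all 3 agents. *Prf1* moved most in isotype control, from 40.4 to 278 CPM. Without any 1 library other than that of all 3 agents, the adjusted *P* of both *Gzma* and *Prf1* became 0.0625. With 7 libraries the smallest *P* of the exact test is 0.0156, which *Prf1* still reached, and over all 8 omissions the differences were 0.96–1.32 for *Gzma* and 0.82–1.19 for *Prf1*. When both receptor chains had to match, *Prf1* kept its call and *Gzma* did not (0.74, exact permutation adjusted *P* = 0.0781).

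**Figure D5:**
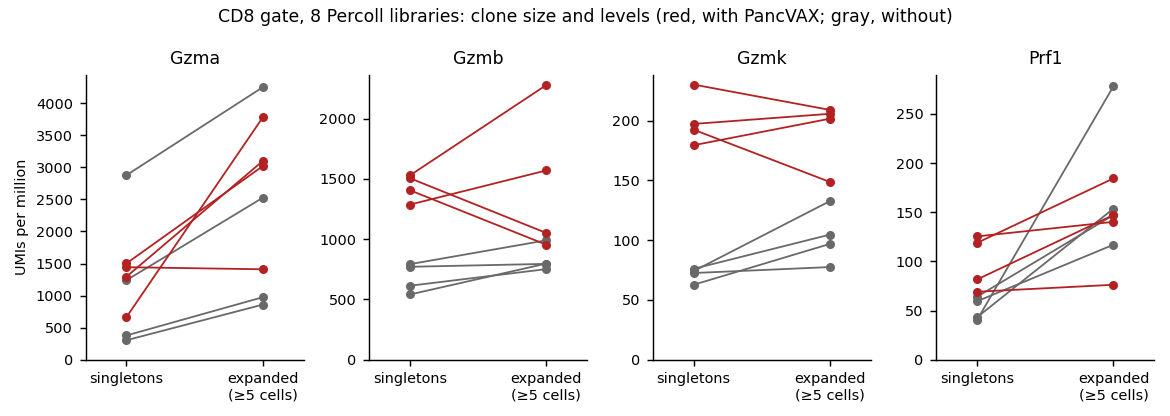
Levels (CPM) in singletons and in clones of 5 or more cells, with 1 line per Percoll library, red with PancVAX and gray without. *Prf1* lines rise in 8 of 8 libraries and *Gzma* lines in 7 of 8, while *Gzmb* and *Gzmk* lines go both ways.

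Clones differed among themselves. In 57 clones of 10 or more cells (1069 cells, 10–76 per clone), the share of cells with a UMI of *Gzma* ran from 0%, in 12 clones, to 80%, with a median of 17.6%. *Gzmb* was detected in every clone, in 5.56%–100% of cells (median 57.1%). *Gzmk* ran from 0% to 85% (median 30.8%) and *Prf1* from 7.69% to 70% (median 33.3%). The largest clone, 76 cells of the pool with all 3 agents, had *Gzma* in 7.89% and *Prf1* in 50% of cells. A clone of 20 cells with PancVAX plus anti-PD-1 had *Gzma* in 80%, *Gzmk* in 85%, and *Gzmb* in 95%. These clones were chosen by size after the data were seen, and cells of a clone share a library.

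Genes with the most similar pattern were found by Pearson correlation of log2(CPM + 1) over 72 sums of gate and pool, among 7309 genes with a mean of 10 CPM or more that were not gate markers. The sums share libraries and pools, so that the values are descriptions. *Gzma* was nearest to *Gm36723* (0.85), *Serpinb9* (0.82), *Ctsd* (0.81), *Sult2b1* (0.80), and *Runx3* (0.79). *Prf1* was nearest to *Ctsd* (0.85), *Zyx* (0.84), *Runx3* (0.79), *Serpinb9* (0.78), and *Efhd2* (0.78). *Gzmb* was nearest to *Prf1* (0.72), *Arpc1b* (0.71), *1700017B05Rik* (0.69), and *Selplg* (0.68). *Gzmk* was nearest to *Ifitm1* (0.83), *Cxcr6* (0.77), *Trgv2* (0.75), *Pstpip1* (0.74), and *Ifitm2* (0.73), and its values with the other 3 members were 0.31–0.49.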

How the data were processed

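Single-cell RNA libraries (5' chemistry, 16 in all) and T cell receptor contigs (8 Percoll libraries) were used. Per the labels, the authors aligned reads to mm10 with Cell Ranger 4.0.0, and the deposited values are UMI counts per gene and barcode, not normalized. Seurat is also named in their notes.

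Barcodes were kept when they had 1000–10000 UMIs, 200–3000 genes, no UMI of a hemoglobin gene, and a mitochondrial share under 10%. No doublet caller was run. Lymphoid gates required 0 UMIs of *Csf1r*, *Csf3r*, *Adgre1*, and *Cd79a*, and the others 0 UMIs of *Cd3*, *Cd8*, and other lineage genes, but further markers of other cell types were not at 0. The CD8 gate needed *Cd3e*, *Cd3d*, or *Cd3g* with *Cd8a* or *Cd8b1*, and its states were assigned in order and included cycling, Pdcd1+ Havcr2+, Pdcd1+ Tcf7+, Ly6c2+ Ccl5+, and other cells. A CD8 state and a similar gene are not reported here. Barcode sequences shared with another library occurred in 1788 of 10541 CD8-gated cells.

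Counts were summed per gate and pool and fitted by edgeR 4.0.16 (R 4.3.3, limma 3.58.1) with 1 term per agent, TMM normalization, filterByExpr, and the quasi-likelihood test. That test gives no SE. The SE of a log2 fold change is here its absolute value divided by the square root of the F statistic. Preparations were compared with treatment as a block, since both libraries of a treatment share its label. No source used here says whether the same mice went into both. *P* values were adjusted over all genes tested (Benjamini-Hochberg). Single values were compared by exact permutation tests (NumPy 2.4.6). Levels were compared on log2(CPM + 1), which understates changes of low values, and shares of cells as percentages. Intervals and zero limits cover counting error only. The scripts were tested on simulated data.

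The 4 genes, the gates, and the gene lists were chosen with earlier results of these data known. Named beside the 4 genes were, for each list and gate, at most 4 genes with the largest changes among those called, and lists with no call are given as counts. *Gzmm* and *Gzmg* were named after their values were seen. Also named were, for each member, the 5 genes with the highest Pearson correlation. Alternatives were DESeq2 1.42.0, median-of-ratios size factors, no filter on low counts, no upper limits on cells, each preparation alone, libraries unsummed, and each pool left out. Promoter letters came from RefSeq (GRCm38.p6).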

Additional observations from a re-analysis of the deposited data

Results flagged for a closer look

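Among the 4 pools with PancVAX, or the 4 without it, a pool was set apart where its gap to the nearest other pool took up more of the whole range than Dixon's critical value for 4 samples (95%) allows. This held in 7 of 56 groups looked at. The critical value allows 1 in 20 for independent values of normal spread. These pools had different antibodies and some gates share cells, so the count cannot show an excess over chance.

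Of the pools with PancVAX, that of PancVAX alone stood above the others for *Gzmk* in CD8-gated cells, at 229 CPM against 177–183, and in Ly6c2+ Ccl5+ CD8 cells, at 331 CPM against 221–232. In Foxp3- CD4 cells *Gzma* was 392 CPM with PancVAX plus anti-PD-1 and 9.12–46.6 CPM in the other pools with PancVAX. In the same gate *Gzmb* was 412 CPM with all 3 agents and 227–233 CPM in the others.

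In Foxp3+ CD4 cells *Gzma* was 74.1 CPM with PancVAX plus anti-PD-1 against 0–9.39 CPM, and 25.8 CPM in isotype control against 0 in the other pools without PancVAX. These rest on 15 UMIs of *Gzma* in the whole gate. In NK cells *Prf1* was 497 CPM with anti-PD-1 plus anti-CTLA-4 against 465–468 CPM in the other pools without PancVAX. This small gap rests on 698 UMIs of *Prf1* in the whole gate, with 29–69 cells per pool, and counting error was not taken into account.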

How the results depend on the processing

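Of 343 values for 53 member-by-comparison results under other settings, and 419 with 1 pool or library left out, 22 and 48 turned sign. All of these fitted values lay in comparisons with no call in the 4 genes, apart from *Gzma* under PancVAX in the CD8 gate, which was not called itself. Differences in shares of cells turned sign 6 and 13 times, and the *Gzmb* difference between clones 1 time. The causes were not tested. Without upper limits on genes and UMIs, 1 in place of 2 of the 4 genes was called under PancVAX in the CD8 gate, and 15 in place of 0 neighboring gates differed. *Prf1* was then lower in NK than in Pdcd1+ Havcr2+ CD8 cells in 8 of 8 pools, where it had been higher in 8 of 8. With both receptor chains matched, 1 in place of 2 genes differed between expanded clones and singletons, and with 1 library left out 0 to 2 did. Without the filter on low counts, 1 gene in place of 0 was called in Pdcd1+ Havcr2+ cells under each of the 3 agents, 3 in Foxp3- CD4, and 1 in Foxp3+ CD4 cells. Those calls used the same pools as the main fits, and the share of all genes called in that setting is not given here. With libraries unsummed, and both libraries of a treatment taken as separate units, 1 was called under PancVAX in Pdcd1+ Havcr2+ cells. Percoll libraries alone gave 2 in Foxp3- CD4 and 1 in Foxp3+ CD4 cells, and DESeq2 gave 1 in Foxp3- CD4 cells. With each pool left out the count ran from 0 to 1 under PancVAX in Pdcd1+ Havcr2+, Foxp3- CD4, and Foxp3+ CD4 cells and under anti-CTLA-4 in Pdcd1+ Havcr2+ cells, and from 0 to 2 under anti-PD-1 there. In Pdcd1+ Tcf7+ and Ly6c2+ Ccl5+ cells 3 to 4 of the 4 genes were called in every alternative that could be fitted. Without the treatment block, the comparison of preparations had 0 calls as with it (*Gzma* 0.15, *Gzmb* 0.23, *Gzmk* 0.0057, *Prf1* −0.25 in CD8-gated cells), so that the replicate block changed no call. Some pools of the Pdcd1+ Tcf7+, Foxp3+ CD4, and NK gates hold as few as 13, 17, and 29 cells, and at this depth *Gzmk* in NK and *Gzma*, *Gzmk*, and *Prf1* in Foxp3+ CD4 cells had too few counts to be tested.

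With no thinning, the sign turned for the share of cells with *Prf1* in the CD8 gate (−1.03), the share of cells with *Gzma* in the NK gate (1.65), the share of cells with *Gzmb* in the NK gate (1.48), the share of cells with *Prf1* in the NK gate (5.00). With thinned to 2000 UMIs, the sign turned for the share of cells with *Gzma* in the NK gate (3.25), the share of cells with *Prf1* in the NK gate (8.78). With TRA and TRB matched, the sign turned for *Gzmb* in clones (−0.035). With whole tumor libraries only, the sign turned for *Gzma* under PancVAX in CD8 gate (0.098), *Gzmb* under anti-CTLA-4 in CD8 gate (−0.0012), *Gzmb* under anti-CTLA-4 in Pdcd1+ Havcr2+ CD8 gate (−0.063), *Gzmb* under PancVAX in NK gate (0.26), *Prf1* under PancVAX in NK gate (0.36). With Percoll libraries only, the sign turned for *Gzma* under PancVAX in CD8 gate (0.0029), *Gzmk* under anti-PD-1 in CD8 gate (−0.12), *Prf1* under anti-CTLA-4 in CD8 gate (0.075), *Prf1* under PancVAX in Pdcd1+ Havcr2+ CD8 gate (0.052), *Gzma* under anti-PD-1 in Pdcd1+ Havcr2+ CD8 gate (−0.21), *Gzmk* under anti-CTLA-4 in Pdcd1+ Havcr2+ CD8 gate (0.0060), *Prf1* under anti-PD-1 in NK gate (−0.094). With 16 libraries with preparation as covariate, the sign turned for *Gzma* under PancVAX in CD8 gate (0.050). With no upper limits on genes and UMIs, the sign turned for *Gzmb* under anti-CTLA-4 in CD8 gate (−0.11), *Gzmk* under anti-PD-1 in Pdcd1+ Havcr2+ CD8 gate (−0.0030), *Gzmb* under anti-CTLA-4 in Pdcd1+ Havcr2+ CD8 gate (−0.083), *Prf1* under PancVAX in Foxp3- CD4 gate (−0.014), *Gzmb* under PancVAX in NK gate (0.13), *Prf1* under PancVAX in NK gate (0.14), *Gzmb* under anti-PD-1 in NK gate (0.28), *Gzma* under Percoll against whole tumor in NK gate (0.13). With no filter on low counts, the sign turned for *Gzma* under Percoll against whole tumor in NK gate (0.13).

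Ranges over the pools left out were −2.10 to 0.073 for the share of cells with *Gzmk* in the Foxp3- CD4 gate, −0.76 to 0.71 for the share of cells with *Prf1* in the Foxp3+ CD4 gate, −2.89 to 2.28 for the share of cells with *Gzma* in the NK gate, −5.64 to 1.32 for the share of cells with *Gzmb* in the NK gate. Further ranges were −0.34 to 1.73 for the share of cells with *Gzma* in the Foxp3+ CD4 gate, −5.34 to 1.67 for the share of cells with *Prf1* in the NK gate, −0.31 to 0.65 for *Gzma* under PancVAX in CD8 gate, −0.67 to 0.25 for *Gzma* under anti-PD-1 in CD8 gate. Further ranges were −0.12 to 0.14 for *Gzmk* under anti-PD-1 in CD8 gate, −0.82 to 0.11 for *Gzma* under anti-CTLA-4 in CD8 gate, −0.23 to 0.15 for *Prf1* under anti-CTLA-4 in CD8 gate, −0.054 to 0.10 for *Gzmk* under Percoll against whole tumor in CD8 gate. Further ranges were −1.25 to 0.44 for *Gzma* under PancVAX in Pdcd1+ Havcr2+ CD8 gate, −0.0014 to 0.48 for *Gzmb* under PancVAX in Pdcd1+ Havcr2+ CD8 gate, −0.63 to 0.94 for *Gzma* under anti-PD-1 in Pdcd1+ Havcr2+ CD8 gate, −1.64 to 0.070 for *Gzma* under anti-CTLA-4 in Pdcd1+ Havcr2+ CD8 gate. Further ranges were −0.26 to 0.20 for *Gzmb* under anti-CTLA-4 in Pdcd1+ Havcr2+ CD8 gate, −0.36 to 0.021 for *Gzmb* under PancVAX in NK gate, −0.26 to 0.15 for *Prf1* under PancVAX in NK gate, −0.23 to 0.20 for *Gzmb* under anti-PD-1 in NK gate. Further ranges were −0.073 to 0.30 for *Prf1* under anti-PD-1 in NK gate, −0.029 to 0.31 for *Prf1* under anti-CTLA-4 in NK gate, −0.16 to 0.11 for *Gzma* under Percoll against whole tumor in NK gate, −0.095 to 0.27 for *Gzmb* under Percoll against whole tumor in NK gate.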

Other observations

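Cycling CD8 cells (1173 cells), gated by mitotic genes, carried *Gzmk* at 62.2–112 CPM in pools without PancVAX and 156–239 CPM in pools with it, with no overlap between the groups. *Gzmb* overlapped in these cells, at 696–1152 and 764–1344 CPM, as did *Prf1*, at 80.8–177 and 57.3–167 CPM. In the CD8 cells of no named state (5070 cells) *Gzmb* was 528–720 and 954–1634 CPM and *Gzmk* 70.7–123 and 163–190 CPM, again without overlap. Without the upper limits on genes and UMIs, which take out 1307 of 2480 cycling cells, *Gzmk* overlapped in cycling cells, at 31.9–80.2 and 74.2–114 CPM. In the CD8 cells of no named state both genes then had no overlap (*Gzmb* 474–688 and 785–1458 CPM, *Gzmk* 65.7–93.1 and 131–172 CPM).

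Other markers moved in the same gates. In cycling cells NK markers (*Ncr1*, *Klrb1c*, *Klre1*) were 51.0–109 CPM with PancVAX and 153–202 without, the *Cd3* genes 1984–2854 and 3304–3627, and *Krt8* with *Krt18* 81.6–662 and 30.0–55.7. In the CD8 cells of no named state the same sums were 82.9–156 and 173–258, 3118–4150 and 4551–4855, and 58.4–360 and 21.3–54.3 CPM. None of these overlapped, and their part in the values of the 4 genes was not tested. No test was made in these gates, and the share of all genes without overlap is not given.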
